A study of Homo sapiens with 6 samples.

Results

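The genes described here encode 9 proteins that bind AU-rich elements in messenger RNA, and they were taken from a table of 62828 loci by symbol. They are HNRNPD, HNRNPAB, ELAVL1, KHSRP, TIA1, TIAL1, ZFP36, ZFP36L1 and ZFP36L2. All 9 were found, and all 9 were among the 12838 loci whose mean over the libraries was 1 FPKM or more. The group was selected on the knockdown to control ratio of HNRNPD, because its level was lower after knockdown of HNRNPU in every RNA preparation. The ratios of the other 8 genes come from the same contrast, so all of them are given as descriptions.

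The study measured RNA of K562, a human cell line established from chronic myelogenous leukemia. Cells received 300 nM siRNA against HNRNPU, a nuclear RNA-binding protein, or control oligos. RNA from whole cells, from nuclei and from cytosol was sequenced after ribosomal RNA depletion, which gave 6 groups of 1 library each. With 1 library per group there was no replicate error and no test, and the sources used here do not say whether the preparations of one treatment came from the same culture. The 95% intervals below cover counting error only. They rest on fragment numbers estimated from the values, and fragments may include PCR copies.

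AU-rich elements are stretches of adenine and uridine in the 3′ untranslated region (3′UTR) of many short-lived mRNAs, among them those of cytokines and early response genes. ZFP36, also called tristetraprolin, and its relatives ZFP36L1 and ZFP36L2 bind them and recruit the deadenylases that shorten the poly(A) tail, and KHSRP also promotes decay. ELAVL1, also called HuR, stabilizes many of the same mRNAs, TIA1 and TIAL1 repress their translation and assemble into stress granules, and HNRNPD, also called AUF1, has been linked both to decay and to stabilization.

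Some of these proteins bind mRNAs of the family itself, so the 3′UTR of each member was searched for the core element. The search covered the transcript strand of 1 GENCODE 29 transcript per gene, and it used the pentamer ATTTA, the heptamer TATTTAT and the nonamer TTATTTATT, each shorter motif lying inside the longer ones. The nonamer occurred once in each of 4 members, and these sites separate the ZFP36 genes and ELAVL1 from the other 5 members. Capitals mark the nonamer, FOS is added as a classical AU-rich mRNA, and T stands for U.
ELAVL1: ttatgtatTTATTTATTgaagtgtg
ZFP36: tgacgactTTATTTATTctaatatg
ZFP36L1: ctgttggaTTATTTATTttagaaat
ZFP36L2: tatttaacTTATTTATTatcttgtg
FOS: tttttaatTTATTTATTaagatgga

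The nonamer began 1637 bases after the stop codon in ELAVL1, 507 in ZFP36, 1438 in ZFP36L1 and 853 in ZFP36L2. Among 3′UTRs of similar length, at most 20% shorter or 25% longer, it was present in 22.2% for ELAVL1, 5.02% for ZFP36, 9.04% for ZFP36L1 and 9.47% for ZFP36L2. The other 5 members had no nonamer in the transcript used. HNRNPD held 2 pentamers and no heptamer in 1687 bases of 3′UTR, where 87.5% of 3′UTRs of similar length held a pentamer and 37.4% a heptamer. KHSRP held no pentamer in 764 bases, where 67.3% of 3′UTRs of similar length did, whereas TIA1 held 13 pentamers and 1 heptamer and TIAL1 held 7 and 1. A match describes these letters only and does not show that a protein binds there.

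The labels of the libraries were checked on other genes. HNRNPU, on chromosome 1 at 245003939 to 245027844 and merged with HNRNPU-AS1, fell from 129 to 55.3 FPKM in whole cells, from 163 to 63.7 in nuclei and from 158 to 34.9 in cytosol. MALAT1, a nuclear noncoding RNA, had a log2 nuclear to cytosolic ratio of 3.82 in control and 4.47 after knockdown, and RPLP0, a ribosomal protein mRNA, had -2.44 and -2.40. All 9 erythroid and K562 marker loci passed the minimum level. Of 8 markers of other cell types 2 passed it, EPCAM at 10.7 to 23.7 FPKM and CD3E at 0.915 to 2.12 FPKM, while MS4A1 and KRT5 were listed at 0 in every library. Between 19913 and 27925 loci had a value above 0, and 1 FPKM on 1 kilobase stood for 13.6 to 39.9 fragments, the fewest in control cytosolic RNA and the most in knockdown nuclear RNA.

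A ratio below is log2(FPKM + 0.1) after knockdown minus the same in control, and a locus is called lower or higher when it moved by at least 1.5-fold, which is 0.58 on the log2 scale. Over the 12838 loci, 3.86% were called lower in whole-cell RNA, 4.74% in nuclear RNA and 5.9% in cytosolic RNA. For higher the shares were 4.76%, 3.86% and 6.41%. The shares were smaller over the 8617 of these loci with 1 gene name and a protein-coding transcript with a 3′UTR. There 2.23%, 2.95% and 2.97% were called lower and 3.26%, 2.30% and 3.28% higher. Of the 9 members, 2 were called lower in whole-cell RNA (HNRNPD and ZFP36L1), and HNRNPD alone was called lower in nuclear and in cytosolic RNA. No member was called higher in any preparation. Over all loci 30 (0.234%) were called lower in all 3 preparations and 44 (0.343%) were called higher in all 3. HNRNPD was among the 30, and the group was chosen on its lower level in all 3. The members had median ratios of 0.05, -0.02 and 0.05 in whole-cell, nuclear and cytosolic RNA, beside 0.06, 0.03 and 0.03 over all loci.

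**Figure D1:**
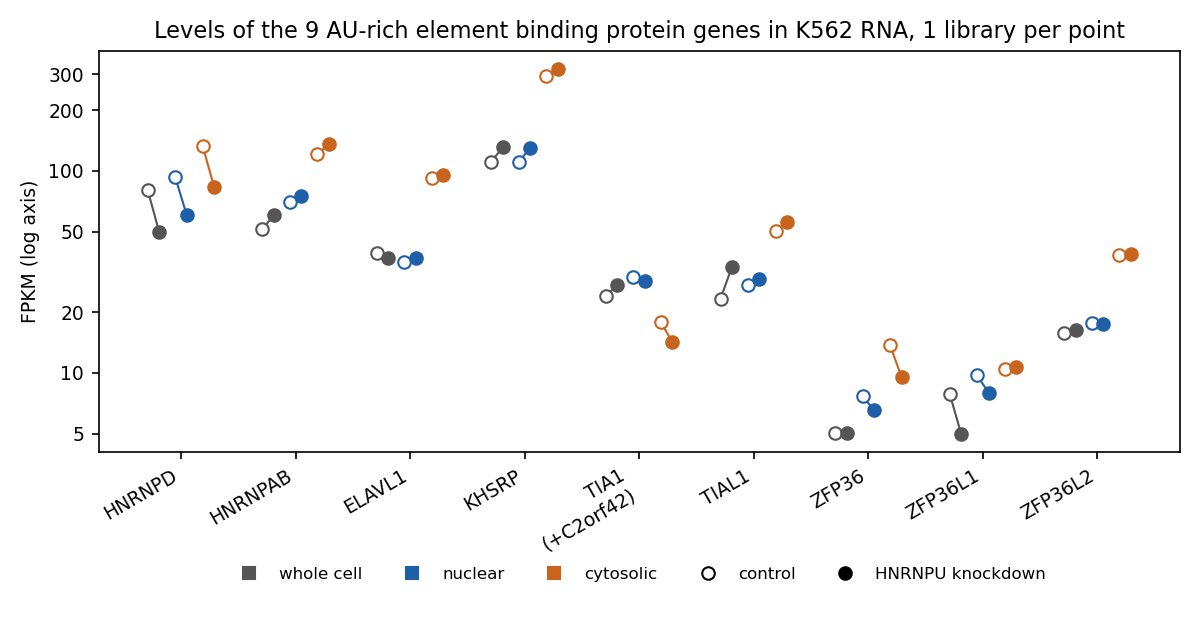
FPKM (log axis) of each of the 9 genes, with open points for control and filled points for HNRNPU knockdown, grey for whole-cell, blue for nuclear and orange for cytosolic RNA, 1 library per point. HNRNPD is the gene whose filled point lies well below the open one in all 3 preparations, from 80.0 to 49.7, 92.7 to 60.4 and 133 to 82.8 FPKM.

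HNRNPD, on chromosome 4 at 83273650 to 83295656 of the hg19 build used by the files, had 80.0 against 49.7 FPKM in whole cells, where pairs are written as control against knockdown. It had 92.7 against 60.4 FPKM in nuclei and 133 against 82.8 FPKM in cytosol. The knockdown libraries thus held 62.1%, 65.2% and 62.5% of the control level, and every knockdown value lay below that of the control library of the same preparation. The log2 ratios were -0.69 (95% counting interval -0.75 to -0.62), -0.62 (-0.67 to -0.57) and -0.68 (-0.74 to -0.62). These values rest on an estimated 2659 to 6747 fragments per library. They are shares of a library, so fewer cells that hold the RNA and less RNA per cell cannot be told apart.

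HNRNPD lay near the 1.5-fold size limit. Its smallest fall, in nuclear RNA, was 0.62 on the log2 scale. Ordered by the smallest of the 3 falls, it was number 23 of the 30 loci inside the limit, and number 11 of 13 among those averaging 5 FPKM or more. The loci just inside were AC093388.3 and RP11-380G5.3, each with a smallest ratio of -0.59, and just outside lay SH3TC2 at -0.58.

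HNRNPAB, on chromosome 5 at 177631507 to 177638164, encodes the hnRNP most similar in domain plan to HNRNPD among the 9. It had 51.6 against 60.3 FPKM in whole cells, 70.5 against 75.0 in nuclei and 121 against 135 in cytosol. All 3 knockdown values were the higher ones, with ratios of 0.22, 0.09 and 0.16, none past the size limit. Within a library the ratio of 2 genes does not depend on scaling by 1 multiplier per library. HNRNPD had 1.55 times the FPKM of HNRNPAB in control whole-cell RNA and 0.825 times after knockdown. The same ratio went from 1.31 to 0.806 in nuclear RNA and from 1.10 to 0.612 in cytosolic RNA, so the order of these genes was the opposite in control and knockdown libraries of every preparation. Their summed FPKM went from 132 to 110.0, from 163 to 135 and from 253 to 218, ratios of -0.26, -0.27 and -0.22.

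HNRNPDL encodes the closest relative of HNRNPD and lies 48060 bases from it on chromosome 4, at 83343716 to 83351294. It had 42.9 against 33.7 FPKM in whole cells, 47.8 against 39.9 in nuclei and 70.2 against 63.4 in cytosol. Its ratios of -0.35, -0.26 and -0.15 were negative in all 3 preparations and smaller in size than those of HNRNPD. The ratio of HNRNPD to HNRNPDL went from 1.87 to 1.48 in whole cells, from 1.94 to 1.51 in nuclei and from 1.89 to 1.30 in cytosol. Of the other named loci nearest to HNRNPD, 4 (RNU6-499P, BIN2P1, IGBP1P4 and SNORD42) were listed at 0 in every library. RP11-127B20.2 had a mean of 0.315 FPKM and RP11-127B20.3, which overlaps the start of the HNRNPD locus, 0.369 FPKM, both under the minimum. The sources used here do not say whether counting used strand, so reads from the overlap cannot be told apart.

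ELAVL1, on chromosome 19 at 8023462 to 8070543, had 39.2 against 37.1 FPKM in whole cells, 35.4 against 37.1 in nuclei and 92.0 against 95.7 in cytosol. Its ratios of -0.08, 0.06 and 0.06 had counting intervals of -0.14 to -0.02, 0.01 to 0.12 and 0.01 to 0.10. These were the smallest changes in size among the members with a mean above 50 FPKM. HNRNPD went from 2.04 to 1.34 times the FPKM of ELAVL1 in whole-cell RNA, from 2.62 to 1.63 in nuclear RNA and from 1.44 to 0.864 in cytosolic RNA.

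KHSRP, on chromosome 19 at 6413358 to 6424805 and merged in the table with the microRNA gene MIR3940, had the highest FPKM of the 9 in every library. It had 111 against 131 FPKM in whole cells, 111 against 130.0 in nuclei and 295 against 319 in cytosol. All 3 knockdown values were higher than control, with ratios of 0.24, 0.23 and 0.12, and none passed the size limit. Its share of the summed FPKM of the 9 genes went from 31.1% to 35.9%, from 27.6% to 33.2% and from 38.3% to 41.9%. The share of HNRNPD went from 22.3% to 13.6%, from 23.1% to 15.4% and from 17.2% to 10.9%. The sum itself moved little, from 358 to 365 FPKM in whole-cell RNA, from 402 to 392 in nuclear RNA and from 771 to 762 in cytosolic RNA.

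TIA1 and TIAL1 encode related translational repressors, and neither was called in any preparation. The TIA1 locus, on chromosome 2 at 70377011 to 70475792, is merged with C2orf42 in the table, so its values hold both genes. It had 24.1 against 27.2 FPKM in whole cells, 29.9 against 28.4 in nuclei and 17.8 against 14.2 in cytosol. The ratios were 0.17, -0.08 and -0.32, the cytosolic one with a counting interval of -0.45 to -0.20. Counting intervals of this locus, here and below, use the length of a TIA1 transcript alone, though the values hold both genes. TIAL1, on chromosome 10 at 121334198 to 121356541, had 23.3 against 33.5 FPKM in whole cells, 27.4 against 29.1 in nuclei and 50.5 against 55.6 in cytosol. Its whole-cell ratio of 0.52 (0.45 to 0.60) was the largest increase of any member and stayed under the size limit, and its ratios in the fractions were 0.09 and 0.14. The whole-cell ratio of TIAL1 exceeded the ratio in nuclear RNA by 0.44 (0.33 to 0.54) and that in cytosolic RNA by 0.39 (0.29 to 0.49), so the whole-cell value was matched in neither fraction.

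The ZFP36 genes, which encode the zinc finger proteins that promote decay, had lower levels than most of the others. ZFP36, on chromosome 19 at 39897452 to 39900052, had 5.03 against 5.06 FPKM in whole cells, 7.67 against 6.54 in nuclei and 13.7 against 9.57 in cytosol. Its ratios were 0.01, -0.23 and -0.51, and the last had a counting interval of -0.77 to -0.26. ZFP36L1, on chromosome 14 at 69254376 to 69263190, had 7.90 against 5.01 FPKM in whole cells, 9.73 against 7.98 in nuclei and 10.4 against 10.7 in cytosol. Its ratios were -0.65 (-0.85 to -0.44), -0.28 (-0.43 to -0.13) and 0.05 (-0.14 to 0.23), so a whole-cell fall past the size limit stood beside level cytosolic values. It was the 1 member whose ratios in 2 preparations had opposite signs and differed by at least 1.5-fold, beside 22.4% of all loci. With a pseudocount of 1 in place of 0.1 the whole-cell ratio of ZFP36L1 was -0.57, short of the limit. ZFP36L2, on chromosome 2 at 43449540 to 43453748, was the most abundant of these genes, with 15.8 against 16.3, 17.7 against 17.4, and 38.2 against 38.7 FPKM, and ratios of 0.05, -0.02 and 0.02.

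ZFP36 and ZFP36L1 changed order between libraries. The ratio of ZFP36 to ZFP36L1 went from 0.636 to 1.01 in whole-cell RNA, from 0.788 to 0.820 in nuclear RNA and from 1.32 to 0.890 in cytosolic RNA. The summed FPKM of all 3 ZFP36 genes went from 28.7 to 26.4, from 35.1 to 32.0 and from 62.3 to 59.0. ZFP36 and ZFP36L1 rest on the fewest fragments of the 9, an estimated 150 to 405 and 283 to 941 per library.

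**Figure D2:**
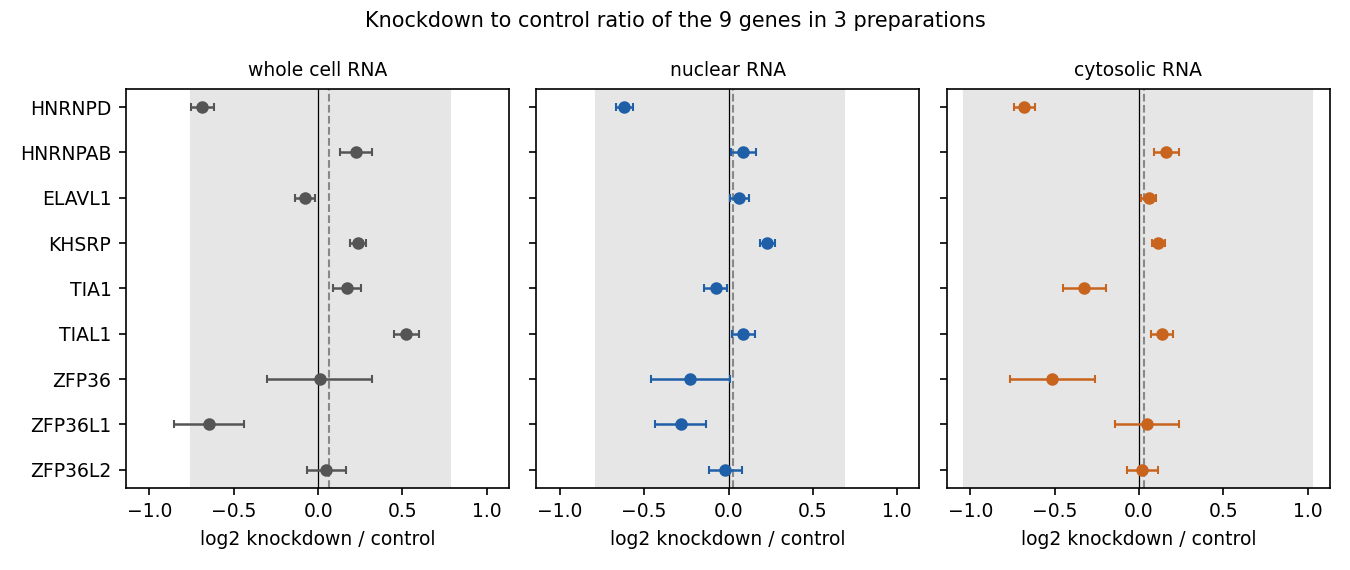
Log2 knockdown to control ratio of each gene in whole-cell, nuclear and cytosolic RNA; bars are 95% counting intervals, the grey band holds the middle 95% of the 12838 loci, the dashed line is their median and the solid line is 0. All points lie inside the band, HNRNPD near its lower edge in whole-cell RNA at -0.69, and TIAL1 is the rightmost point in whole-cell RNA at 0.52.

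Among all loci the ratio of HNRNPD stood at percentile 2.94 in whole-cell RNA, 4.11 in nuclear RNA and 4.88 in cytosolic RNA. ZFP36L1 was at percentiles 3.27, 15.2 and 52.8 and TIAL1 at 93.9, 59.1 and 66.9 in the same order. The ratio was below 0 in all 3 preparations for 1 member and for 13.2% of all loci, and above 0 in all 3 for 3 members (HNRNPAB, KHSRP and TIAL1) and for 24.6% of all loci. The first count depends on scaling: HNRNPD was joined by ZFP36 and ZFP36L2 with equal medians and after quantile normalization, where 16.6% and 17.1% of all loci were below 0 in all 3, and by ZFP36 with equal totals, where 14.1% were. The second count was 3 under each scaling.

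The levels kept nearly the same order across libraries. KHSRP was first in each. HNRNPD came next in the 3 control libraries and HNRNPAB in the 3 knockdown libraries. ELAVL1 had rank 4 in each library except knockdown cytosolic RNA, where it had rank 3 and HNRNPD rank 4. The TIA1 locus, merged with C2orf42, had 1.03 times the FPKM of TIAL1 in control whole-cell RNA. It had 1.09 times in control nuclear RNA and 0.352 times in control cytosolic RNA. Among all loci analysed, HNRNPD stood at percentile 96.9 against 94.0 in whole cells, 96.8 against 94.7 in nuclei and 95.3 against 91.6 in cytosol. It therefore stayed among the more abundant RNAs after knockdown.

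The nuclear to cytosolic ratio compares FPKM of different preparations, whose relative scale is set by the authors' processing. As deposited, the log2 ratio in control was negative for 8 of the 9 genes, beside 64.9% of all loci. These 8 ran from -1.41 for KHSRP and -1.37 for ELAVL1 to -0.10 for ZFP36L1. Of the 9, only the TIA1 locus, merged with C2orf42, was positive, at 0.75. HNRNPD had -0.51 as deposited, close to the median of -0.44 over all loci. After quantile normalization it had 0.48 beside a median of -0.08, and with equal totals 0.42 beside 0.46. The sign depends on the scaling: 1 member lay above 0 as deposited, 2 with equal medians, 4 after quantile normalization and 6 with equal totals. The order of the genes under 1 multiplier per library does not depend on it. In control the merged TIA1 locus was the most nuclear of the 9 and KHSRP the least.

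The localization shift is the log2 nuclear to cytosolic ratio after knockdown minus that in control. A shift of at least 1.5-fold was seen in 9.2% of all loci toward the cytosol and in 7.59% toward the nucleus, and in none of the 9 members. HNRNPD had a shift of 0.06 (95% counting interval -0.02 to 0.14), with log2 ratios of -0.51 and -0.45. The largest positive shifts were those of ZFP36, 0.29 (-0.05 to 0.63), and of the TIA1 locus, 0.25 (0.10 to 0.39). ZFP36L1 had the largest negative one, -0.33 (-0.57 to -0.09), and the other 5 lay between -0.07 and 0.11. The median shift was 0.01 over the members and 0.00 over all loci.

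**Figure D3:**
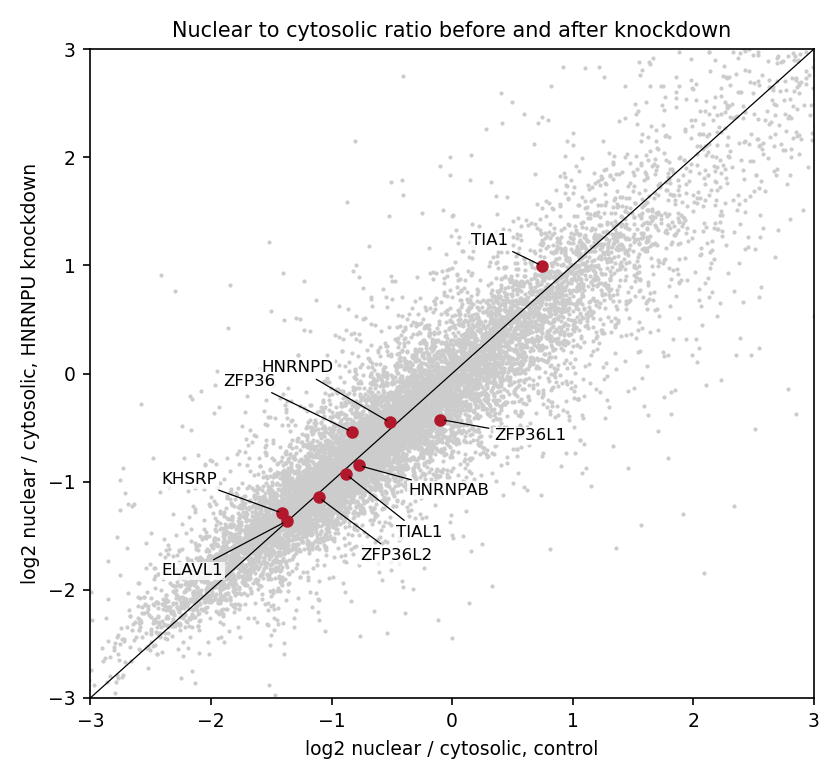
Log2 nuclear to cytosolic ratio in control (horizontal) and after HNRNPU knockdown (vertical) for all loci analysed within the axes (grey) and the 9 genes (red); the line marks equal values. The TIA1 locus, merged with C2orf42, sits above 0 on both axes, at 0.75 in control, and the other 8 genes lie below 0 on both.

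The genes whose profile over the 6 libraries was most like that of HNRNPD were found by the distance between centred log2 profiles, over 8497 loci whose mean was 5 FPKM or more. The 6 nearest were ABHD5, RP11-206L10.11, PIM2, FAM27B, SOCS1 and a merged locus that holds RBFA, at distances of 0.308 to 0.381, beside a median of 1.198 over all these loci. The distance mixes differences between fractions with those of knockdown. All 6 had negative knockdown ratios in every preparation, but none was called lower in all of them. ABHD5, a lipase cofactor, had 15.1 against 11.4, 17.0 against 11.9, and 23.2 against 16.6 FPKM in whole cells, nuclei and cytosol. SOCS1, an inhibitor of cytokine signalling, had 16.6 against 13.8, 20.5 against 13.3, and 31.9 against 21.9 FPKM. Of the members, ZFP36L1 at 0.623 and ZFP36 at 0.723 were nearest to HNRNPD, and the merged TIA1 locus at 1.77 was farthest.

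Other proteins known to bind AU-rich or U-rich RNA were counted from a list of 16, of which 14 passed the minimum level and ELAVL2 and ELAVL4 were listed at 0. ELAVL3 passed only as part of a locus merged with ECSIT, ZNF653 and another gene, so its own level is not known. None of the 14 was called lower or higher in any preparation, where 12% of all loci were called lower and 12.5% higher. These 2 shares, here and for the lists below, include noncoding loci, and protein-coding loci had smaller shares in each preparation, as given above. The median ratios were 0.03, 0.12 and 0.06. The largest mean changes were in HNRNPA0 (0.35, 0.21 and 0.22), HNRNPDL (given above), RC3H1, which encodes the decay factor Roquin-1 (0.34, 0.16 and 0.09), and FUBP1, a relative of KHSRP (-0.18, -0.02 and -0.31). Within that family FUBP3 had -0.11, -0.42 and 0.20. HNRNPD itself was past the size limit, and the group was chosen on its lower level.

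The enzymes that these proteins recruit were counted from 25 genes of deadenylation and decapping, all of which passed the minimum level. XRN1, the cytoplasmic 5′ to 3′ exonuclease, was called higher in whole-cell RNA at 0.60 and had 0.23 in nuclear and -0.25 in cytosolic RNA. No other gene of the list was called in any preparation, where 12% of all loci were called lower and 12.5% higher. The median ratios of the list were 0.12, 0.05 and 0.02. The largest mean changes were in DCP2, the decapping enzyme (0.37, 0.17 and 0.20), its activator DCP1A (-0.56, 0.05 and -0.11), CNOT11 (0.13, 0.31 and 0.18) and CNOT3 (0.29, 0.02 and 0.29), both subunits of the deadenylase complex.

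The kinase p38 and its target MK2 phosphorylate ZFP36, which 14-3-3 proteins then bind. Of 16 genes of this route 15 passed the minimum level, and MAP2K3, which activates p38, was the one called, lower in nuclear RNA at -0.60, with 0.31 in whole-cell and -0.34 in cytosolic RNA. In any preparation 1 of the 15 was thus called lower and 0 higher, beside 12% and 12.5% of all loci. The median ratios were 0.12, 0.09 and -0.01. MAPK11, a form of p38, had 0.00, -0.44 and -0.18, and the 14-3-3 genes YWHAZ and YWHAE had 0.28, 0.17 and 0.06, and 0.12, 0.16 and 0.21.

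Stress granule genes were counted from a list of 10, all above the minimum level. G3BP2, a core granule protein whose locus is merged with a Y_RNA copy, had 16.2 against 24.3 FPKM in whole cells, 20.8 against 31.7 in nuclei and 29.5 against 45.5 in cytosol. Every knockdown value was the higher one, with ratios of 0.58, 0.61 and 0.62, of which the nuclear and cytosolic ones passed the size limit. The whole-cell ratio, 0.5842, fell short of 0.5850 only through the added 0.1, since the FPKM themselves rose 1.502-fold. FMR1 was called lower in whole-cell RNA at -0.61 and had 0.01 and 0.08 in the fractions. In any preparation 1 of the 10 was thus called lower and 1 higher, beside 12% and 12.5% of all loci. UBAP2L (0.48, 0.30 and 0.07), ATXN2 (0.38, -0.07 and 0.52) and ATXN2L (0.22, 0.06 and 0.29) were not called, and the median ratios of the list were 0.20, 0.09 and 0.09.

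Messenger RNAs known for AU-rich elements were counted from a list of 32, of which 26 passed the minimum level. The calls were 1 lower and 1 higher for whole cells, 3 lower and 1 higher for nuclei, and 4 lower and 0 higher for cytosol. In any preparation 6 of the 26 were called lower and 2 higher, beside 12% and 12.5% of all loci, and the shares of all loci in each preparation are those given above. The medians were 0.11, -0.18 and -0.02. CDKN1A, the cell cycle inhibitor p21, had 3.78 against 1.94 FPKM in whole cells, 5.21 against 2.73 in nuclei and 8.21 against 6.61 in cytosol. Its ratios were -0.93, -0.91 and -0.31, the whole-cell and nuclear ones past the size limit.

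CCND1, which encodes cyclin D1, had 5.08 against 5.00 FPKM in whole cells, 8.28 against 5.71 in nuclei and 16.4 against 7.89 in cytosol, so that only its cytosolic ratio of -1.05 passed the limit. FOS, whose nonamer is shown above, had ratios of -0.03, -0.74 and -0.61 at a level of 0.791 to 3.24 FPKM. MYC, a classical AU-rich mRNA, had 0.00, 0.09 and 0.01 at 34.8 to 62.8 FPKM. IL6, a cytokine mRNA, had ratios of 1.21, -0.81 and -0.30, at 0.481 to 1.69 FPKM, so it was called higher in whole-cell RNA and lower in nuclear RNA.

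**Figure D4:**
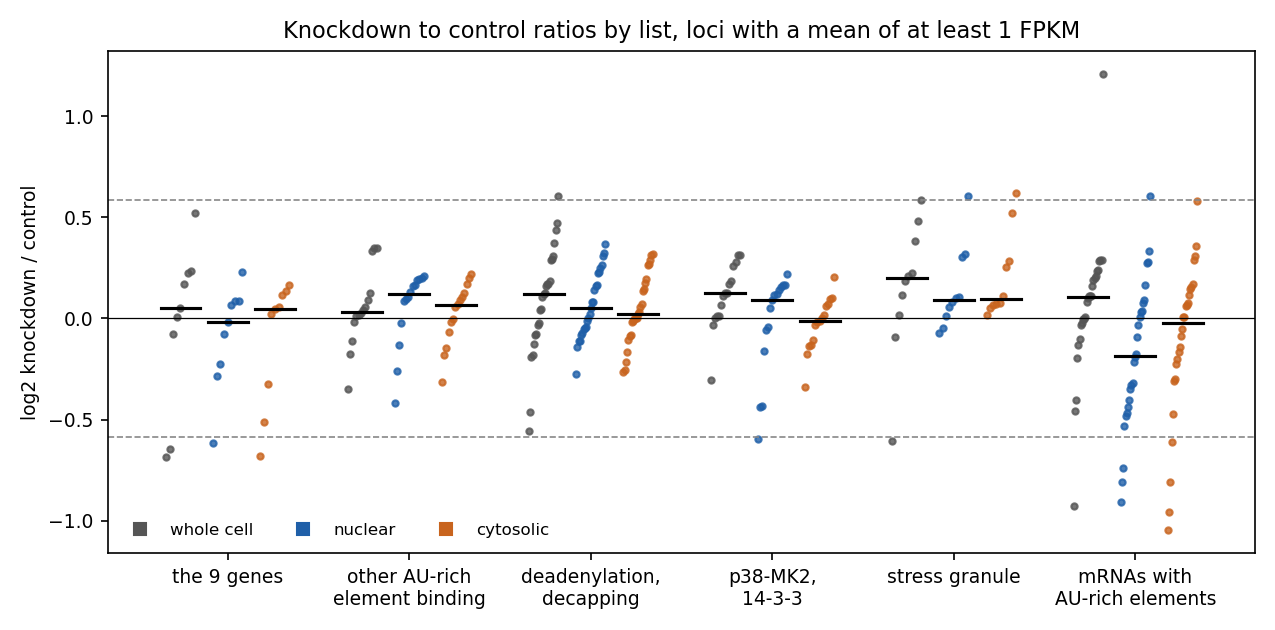
Log2 knockdown to control ratio of each analysed locus in the 9 genes and 5 related lists, grey for whole-cell, blue for nuclear and orange for cytosolic RNA; black bars are medians and dashed lines mark the 1.5-fold limit. Most points lie between the dashed lines, and the mRNAs with AU-rich elements reach farthest in both directions, from -1.05 to 1.21.

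The element itself was also compared over all loci with 1 gene name and a 3′UTR of 1 to 4 kilobases. The median ratios of the 400 loci with a nonamer were 0.07, 0.07 and 0.02 in whole-cell, nuclear and cytosolic RNA. Those of the 398 loci without a pentamer were 0.06, -0.06 and 0.02. For the classes between them, the nuclear medians of the 1758 loci with a pentamer but no heptamer and of the 1254 with a heptamer but no nonamer were 0.06 and 0.08, and that of the 73 loci with 2 or more nonamers was 0.02. The nuclear median thus did not follow the length or number of the motif, and only the loci without a pentamer had one below 0. Their 3′UTRs were also shorter, with a median of 1455 bases against 2302 for the loci with a nonamer, and the part of this in the difference was not tested.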

How the data were processed

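RNA preparations of K562 cells given HNRNPU siRNA or control oligos were compared, 1 library per group. The authors deposited FPKM values, fragments per kilobase scaled to library size, for 62828 loci, a unit inferred here from the values and tool names. Per the submitters' processing notes, the tools included TopHat2 2.0.13, Cuffdiff 2.2.1, CASAVA and FastQC, and the builds named were hg19 and mm9. The sources used here do not state the library scaling, the annotation or the use of strand. Such processing sets the level of one preparation against another and can merge neighbouring genes into 1 locus.

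Loci were matched by splitting merged names at commas. Some list genes, among them ELAVL3, PAN2, PPP2CA and HIF1A, were thus counted through loci that also hold other genes. Ratios are differences of log2(FPKM + 0.1), which understate changes of low loci, over the 12838 loci averaging 1 FPKM or more. With 1 library per group no test was run. The members and lists were chosen with earlier results of these data known. Named genes were all 9 members, HNRNPU, up to 4 loci per list with the largest absolute mean of the 3 ratios, the 6 loci nearest to HNRNPD by profile and the 3 nearest named loci on each side; XRN1, FMR1, FUBP3, MYC and IL6 were named after their values were seen. Some loci that these rules give are not reported here.

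Fragment numbers were estimated from the steps between low values of 3600 loci of 1 exon, after subtracting 235 bases from each length, and counting intervals assume Poisson counts. Motifs were searched in the longest GENCODE 29 transcript with a consensus coding sequence tag (GRCh38; sequences only, no coordinates taken). This was the last of 3 transcript rules tried, and the earlier ones were dropped after their output was seen because they gave implausible transcripts for some genes; all 3 are compared in the closing section. Python 3.11.15, numpy 2.4.6, pandas 2.3.3 and matplotlib 3.10.9 were used, and the calculations were tested on simulated data. The simulation drew Poisson counts with the FPKM per fragment estimated here. It could therefore not check those estimates or the counting intervals against the deposited values.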

Additional observations from a re-analysis of the deposited data

Results flagged for a closer look

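Of 98 loci in the 9 genes and the related lists, 13 had knockdown ratios of opposite sign in 2 preparations that differed by at least 1.5-fold, and 1 of them was a member. The same was true of 22.4% of all 12838 loci. These differences were not tested, since each group had 1 library. Whole-cell minus cytosolic, the difference was -0.69 for ZFP36L1 (-0.65 against 0.05), 0.86 for XRN1, 0.81 for CXCL8 and -0.68 for FMR1. Whole-cell minus nuclear, it was -0.61 for DCP1A, 0.91 for MAP2K3, 0.68 for JUNB, 2.02 for IL6 and 0.64 for PLAUR. Nuclear minus cytosolic, it was -0.62 for FUBP3, 0.64 for CNOT6L, -0.59 for TOB2 and -0.59 for ATXN2. IL6 and CXCL8 had means of 1.21 and 1.16 FPKM, close to the minimum.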

How the results depend on the processing

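HNRNPD, on whose lower levels the group was chosen, stayed the member called lower in all 3 preparations under every pseudocount and scaling tried. The other minimum levels and leaving out 1 preparation could not undo its call. They only change which low loci are kept or require fewer calls. Its ratios ranged from -0.77 to -0.68 in whole-cell, -0.62 to -0.60 in nuclear and -0.71 to -0.65 in cytosolic RNA. At a size of 2-fold 0 members were called lower in each preparation and in all 3. With a pseudocount of 1, 1 member was lower in whole-cell RNA in place of 2, and quantile normalization gave a member median of -0.0328 there.

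Members with a nuclear to cytosolic ratio above 0 in control numbered 1 as deposited, 2 with equal medians, 4 after quantile normalization and 6 with equal totals. Those above the median of all loci numbered 2 as deposited, 5 after quantile normalization and 1 with no minimum. HNRNPAB turned to 0.25 in control and 0.14 after knockdown under quantile normalization and to 0.15 and 0.0720 with equal totals. With equal totals TIAL1 turned to 0.0481 and ZFP36 to 0.0934 in control. HNRNPD turned to 0.48 in control and 0.52 after knockdown under quantile normalization and to 0.42 and 0.47 with equal totals. These follow from rescaling whole libraries.

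The small counts of the lists moved too. For deadenylation and decapping, 0 were higher with a pseudocount of 1, at 2-fold, with equal medians and with equal totals, and 1, 2 and 1 were lower with equal medians, quantile normalization and equal totals. For the p38 route 0 were lower with a pseudocount of 1, with equal totals and at 2-fold, and 1 was higher with no minimum. For mRNAs with AU-rich elements, 6 lower and 2 higher in any preparation became 2 and 1 with a pseudocount of 1, 1 and 1 at a minimum mean of 5 FPKM and 1 and 1 at 2-fold, and 4 were higher with no minimum. For stress granule genes 0 were lower with a pseudocount of 1, and 0 were lower and 0 higher at 2-fold. The cause was not tested.

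Over all loci the 30 lower and 44 higher in all 3 preparations became 19 and 17 with a pseudocount of 1, 13 and 10 at a minimum mean of 5 FPKM, 219 and 200 with no minimum and 8 and 9 at 2-fold. With the whole-cell, nuclear or cytosolic preparation left out they were 129 and 127, 105 and 134, and 120 and 104, since fewer calls were then required. In single preparations, a pseudocount of 1 gave 258, 325 and 337 lower in whole-cell, nuclear and cytosolic RNA, and quantile normalization 819, 808 and 415.

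The other 2 transcript rules, tried first and dropped after their output was seen, were the longest coding sequence and the principal isoform. The same 4 members held a nonamer under all 3 rules, and the nuclear medians were 0.07 with a nonamer under each and -0.05 and -0.06 without a pentamer. The principal isoform rule took a TIAL1 transcript of 1401 bases in place of 5072, which would lower its fragment estimate and widen its intervals.

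No paired analysis of replicates was possible, with 1 library per group. A fit with the 3 preparations as blocks was not run, since it would treat preparations as replicates. Depth limits ZFP36 and ZFP36L1 most. Merged loci, strand and the origin of the cultures bear on all values and could not be checked here.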
